A study of Mus musculus with 9 samples.

Results

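The genes described here lie on mouse chromosome 8 between 50.26 and 78.11 Mb (GRCm38), in the part of the infarct volume interval of the WSB by B6 cross that lies beyond Civq4, the infarct volume interval of the C3H by B6 cross. Members were the genes that start and end inside these limits, Ncan and Hapln4 left out, and they were selected on one measured value, a mean level over the 9 mice of 0.1 FPKM or more (FPKM counts read fragments relative to gene length and library size). The rule left 206 members of 477 annotated genes, while 271 genes fell under the mean of 0.1 FPKM and 170 of these had no read in any mouse. The whole table held 54532 genes, of which 20768 reached a mean of 0.1 FPKM. Since this level chose them, the fact that they were expressed is not a result. The 3 members nearest to the limit were Aprt-ps (0.106 FPKM), Gm10358 (0.115 FPKM) and Gm45359 (0.124 FPKM), and the 3 genes just under it were Ankle1 (0.0930 FPKM), Gm45756 (0.0946 FPKM) and Gm45242 (0.0971 FPKM).

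RNA was sequenced from the brain cortex of adult male mice aged 8 to 12 weeks, with 3 mice of each of 3 inbred strains. B6 mice were C57BL6/J, the strain from which the mouse reference genome was built, C3H mice were C3H/HeJ, a classical laboratory strain, and WSB mice were WSB/EiJ, a strain derived from wild Mus musculus domesticus. The labels name no introduced allele, transgene or agent, so each comparison is between whole genomes, and a difference in a member cannot be assigned to the interval by these data. In bulk RNA of a tissue such as this one, fewer cells of a type cannot be told apart from less RNA per cell.

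A quantitative trait locus is a stretch of chromosome whose parental alleles go with the size of a trait in a cross. Any gene within it can carry the responsible variant, either in its protein or in the DNA that sets its expression. Genes of such an interval are neighbours and need share no function. This stretch of chromosome 8 holds genes for neuropeptide processing (Cpe), synaptic vesicles (Rab3a, Unc13a), neuropeptide Y receptors (Npy1r, Npy5r), sterol synthesis (Msmo1), prostaglandin breakdown (Hpgd), heme breakdown (Hmox1), endothelial pores (Plvap), mitochondrial respiration (Ndufa13) and zinc-finger transcription factors. Of the 206 members, 162 were protein-coding, 10 were processed pseudogenes, which are copies of a spliced mRNA set back into the genome, 7 were antisense RNAs and 6 were long intergenic non-coding RNAs.

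Some of the members with large strain differences are near-copies of a gene elsewhere, so their sequences are shown first. Each pair below is 90 bases of both transcripts in the direction of the gene (GENCODE M21 transcripts of GRCm38). Shown is the ungapped stretch of that length, within the matched gene's coding sequence, with the most differences. Capitals mark the bases at which the 2 sequences differ. A sequencing read of 150 bases can carry only the few differences that it happens to cover, which limits how reads are assigned between the copies.
Gm10282: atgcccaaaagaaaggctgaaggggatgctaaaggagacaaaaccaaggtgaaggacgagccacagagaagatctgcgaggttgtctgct
Hmgn2: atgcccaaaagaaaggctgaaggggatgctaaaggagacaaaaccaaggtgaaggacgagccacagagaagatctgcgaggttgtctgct
Gm7901: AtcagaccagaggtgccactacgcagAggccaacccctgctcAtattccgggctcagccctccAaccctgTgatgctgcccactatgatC
Phgdh: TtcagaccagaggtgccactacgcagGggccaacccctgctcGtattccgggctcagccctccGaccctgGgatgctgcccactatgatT
Gm7730: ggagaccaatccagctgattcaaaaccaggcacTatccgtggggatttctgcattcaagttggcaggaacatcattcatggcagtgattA
Nme2: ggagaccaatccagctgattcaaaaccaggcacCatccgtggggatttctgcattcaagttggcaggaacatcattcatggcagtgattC
Gm18860: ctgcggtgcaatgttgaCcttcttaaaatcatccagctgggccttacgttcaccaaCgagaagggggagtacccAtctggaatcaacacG
Cnot8: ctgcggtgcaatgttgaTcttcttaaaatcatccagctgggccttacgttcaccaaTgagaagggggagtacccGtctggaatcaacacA
No base differed in the stretch of Gm10282 and Hmgn2, 2 differed for Gm7730 and Nme2, 4 for Gm18860 and Cnot8 and 6 for Gm7901 and Phgdh. Over the whole aligned transcript, identity was 99.3% for Gm10282 with Hmgn2, 98.7% for Gm7901 with Phgdh, 97.8% for Gm7730 with Nme2 and 97.8% for Gm18860 with Cnot8.

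Depth ranged from 17651630 to 21562429 reads on genes per B6 mouse, 19042306 to 19433751 per C3H mouse and 16317439 to 17784118 per WSB mouse. Markers of cortical neurons were present in all mice, with summed levels of 5 markers of 351 to 422 FPKM in the B6 mice, 403 to 491 in the C3H mice and 347 to 398 in the WSB mice. The WSB mice all lay below the C3H mice in these neuron markers. Markers of 5 other sources did not overlap between some strains. The 4 blood markers summed to 554 to 927 FPKM in C3H, above 201 to 242 in B6 and 249 to 293 in WSB. The 4 oligodendrocyte markers summed to 349 to 498 FPKM in WSB, below 644 to 822 in B6 and 613 to 815 in C3H. The 4 hippocampus markers summed to 63.7 to 71.3 FPKM in WSB, above 35.4 to 47 in B6 and 46.3 to 48.4 in C3H, and the 4 microglia markers to 43.9 to 48.3 FPKM in WSB, below 50.3 to 58.2 in B6 and 51.9 to 61.3 in C3H. The 3 astrocyte markers summed to 47.8 to 57.1 FPKM in WSB, below 57.4 to 60.3 in B6, with 53.4 to 62.5 in C3H. Choroid plexus markers varied within strains, from 63.1 to 758 FPKM over the B6 mice, 89.6 to 650.0 over the C3H mice and 464 to 599 over the WSB mice, and so did striatal markers (75.7 to 312, 75.2 to 213 and 50.7 to 152 FPKM). The 3 endothelial markers (21.9 to 25.3, 16.5 to 24.2 and 19.9 to 26.1 FPKM) overlapped between all strains. The part of these levels in the differences below was not tested, except where a value is given.

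Between WSB and B6, 14 of the 203 members tested differed (limma on log2 of FPKM + 0.1, Benjamini-Hochberg adjusted p under 0.05), or 6.90% of the members beside 5.90% of all 20746 genes tested. In WSB, 9 members were higher (background 2.81%) and 5 lower (background 3.09%). The members higher in WSB were Gm7901, Ccdc194, Gm10282, Zfp963, Plvap, Ssbp4, Gtpbp3, Fam32a and Fcho1, and those lower included Gm10654, Slc5a5, Hpgd and Tmem59l. The WSB and B6 mice did not overlap in 63 members (31.0%), beside 26.0% of all genes. An unadjusted p under 0.05 was reached by 61 of the 203 members, beside 4235 of the 20746 genes. The count fell to 7 without B6 replicate 2 and to 9 without WSB replicate 3. Over all genes it fell from 1224 to 651 and to 814. With GC trends taken out of every library, 19 passed, 10 higher and 9 lower. Over all genes 1462 then passed, 705 higher and 757 lower.

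Between C3H and B6, 15 of the 203 members tested differed, or 7.39% of the members beside 4.64% of all 20602 genes tested. In C3H, 8 were higher (background 2.38%) and 7 lower (background 2.26%). The members higher in C3H were Gm7730, Gm18860, Gm10282, Plvap, Ssbp4, Rex1bd, Gtpbp3 and Fam32a, and those lower included Gm10654, Gm10033, Slc5a5, Hpgd, Zfp963 and Msmo1. Values did not overlap in 76 members (37.4%), beside 28.9% of all genes. An unadjusted p under 0.05 was found for 75 of the 203 members, beside 4972 of the 20602 genes. Among genes averaging 1 FPKM or more the split was 15 higher and 4 lower, among protein-coding genes alone 13 and 6, and with all strains in 1 fit 15 and 7. Over all genes these splits were 459 and 364, 479 and 452, and 714 and 653. One mouse moved this count most. Leaving out C3H replicate 2 gave 33, of which 14 were among the 15, and the count was 8, 7 and 7 without B6 replicate 1, B6 replicate 2 and C3H replicate 1. Over all genes the first of these fits gave 2301, beside 956 with every mouse, and the others gave 530, 504 and 507.

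Between WSB and C3H, 12 of the 201 members tested differed, or 5.97% of the members beside 5.74% of all 20607 genes tested. In WSB, 6 were higher (background 2.61%) and 6 lower (background 3.13%). Gm23468, Gm7901, Gm45704, Zfp963, Glra3 and Msmo1 were higher in WSB, and Gm7730, Gm45650, Yjefn3, Plvap, Bst2 and Tmem38a were lower. Values did not overlap in 64 members (31.8%), beside 28.6% of all genes. An unadjusted p under 0.05 was found for 50 of the 201 members, beside 4912 of the 20607 genes. Leaving out C3H replicate 2 raised the count to 24, and it fell to 3 and 4 without C3H replicates 1 and 3 and to 5, 7 and 7 without WSB replicates 1, 2 and 3. Over all genes it rose from 1182 to 2002 without C3H replicate 2. It fell to 475 and 528 without C3H replicates 1 and 3 and to 569, 678 and 715 without WSB replicates 1, 2 and 3.

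In all, 26 members differed in at least 1 comparison, 13 of them in 1, 11 in 2 and 2, Plvap and Zfp963, in all 3. The comparisons share mice, so a member called in 2 of them does not rest on independent mice. WSB and C3H lay on opposite sides of B6, with no overlap of either with B6, in 4 members (1.94%), beside 1.26% of all genes. A log2 fold change above 0 was found for 106 members in WSB against B6 (52.2%, beside 50.3% of all genes), 112 in C3H against B6 (55.2%, beside 49.6%) and 89 in WSB against C3H (44.3%, beside 51.1%). The median log2 fold change of the members was 0.020 for WSB against B6, 0.065 for C3H against B6 and -0.044 for WSB against C3H, beside 0.0025, -0.0038 and 0.0089 for all genes. In the 143 members that averaged 1 FPKM or more, the median SD of log2 values within a strain was 0.15 in B6, 0.16 in C3H and 0.14 in WSB, and over 13010 such genes of the whole table it was 0.13, 0.14 and 0.13.

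**Figure D1:**
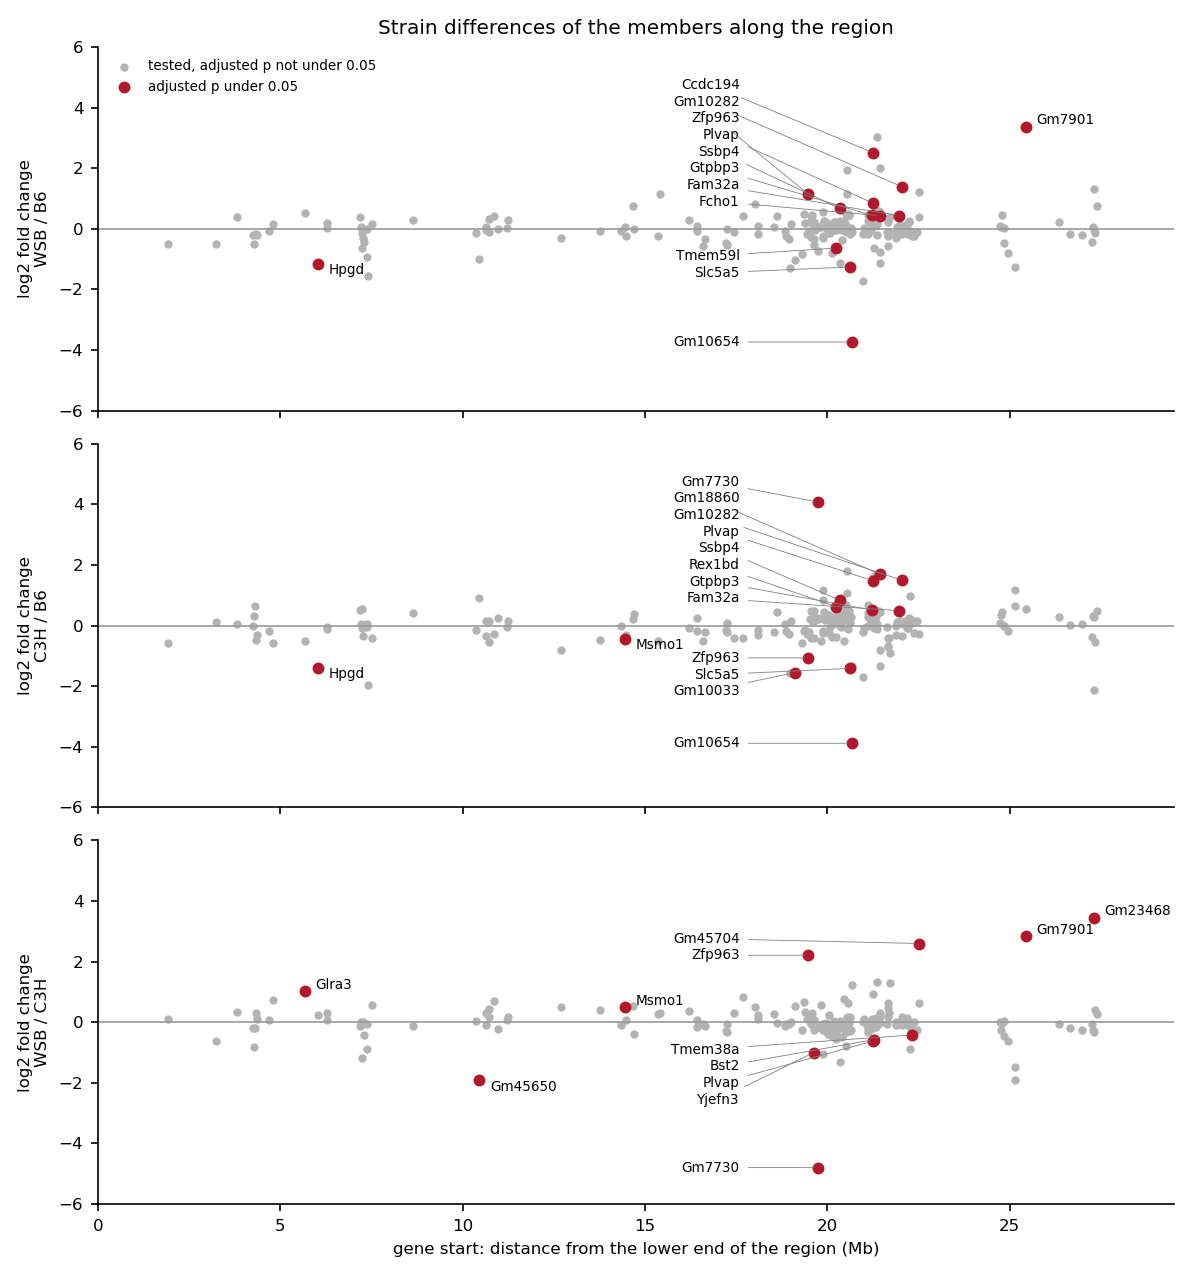
Log2 fold changes of the tested members against the distance of each gene's start from the lower end of the region (Mb), for WSB against B6, C3H against B6 and WSB against C3H. Red points are members with an adjusted p under 0.05, each with its name, and grey points are the other members. Most members, and 23 of the 26 that differed, lie beyond 13.925 Mb.

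Members were unevenly spread along the region. In 4 equal stretches of 6.9625 Mb, from the lower end upward, lay 14, 23, 95 and 74 members, and the numbers that differed in any comparison were 2, 1, 11 and 12. The median GC content of the members' transcripts was 40.3% and 42.8% in the lower pair and 55% and 53.3% in the upper pair. Over all members it was 52.7%, beside 49.6% for the 20768 genes of the whole table at that level. GC content moved with the C3H comparisons. Across 143 members, which share their libraries and are not independent, the Spearman correlation between GC content and log2 fold change was 0.53 for C3H against B6, 0.21 for WSB against B6 and -0.43 for WSB against C3H, and across all genes it was 0.48, 0.11 and -0.40.

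Among 7 vessel, heme and hypoxia members, Plvap was called in all 3 comparisons and no other member was called in any. Plvap (ENSMUSG00000034845, chr8:71497765-71511752, minus strand) encodes the protein of the diaphragms that span the pores of fenestrated endothelium, and its loss from brain endothelium accompanies maturation of the blood-brain barrier. Its levels were 3.79, 3.71 and 4.84 FPKM in the B6 mice, 11.3, 11.8 and 11.7 FPKM in the C3H mice and 7.78, 8.23 and 6.53 FPKM in the WSB mice. The 3 strains did not overlap, with B6 lowest and C3H highest. Plvap was 2.79-fold higher in C3H than in B6 (log2 fold change 1.48, standard error 0.12, adjusted p = 0.000438, limma) and 1.81-fold higher in WSB than in B6 (log2 fold change 0.86, standard error 0.14, adjusted p = 0.0127, limma), on the scale of FPKM + 0.1. It was lower in WSB than in C3H (log2 fold change -0.63, standard error 0.10, adjusted p = 0.0151, limma), a difference that no longer passed after the trend with GC content was removed (log2 fold change -0.49). The C3H difference from B6 passed without each mouse. That of WSB from B6 was lost without B6 replicate 2, without WSB replicate 1 and with the replicate block, and that of WSB from C3H without WSB replicate 1, C3H replicate 1 or C3H replicate 3, with the block and with untrended eBayes.

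The levels of 3 general endothelial markers, none of them called, stand beside those of Plvap. Cldn5, a tight junction protein, had 19.9 ± 1.84 FPKM (SD, n = 3) in B6, 16.7 ± 3.18 in C3H and 19.3 ± 3.02 in WSB, and its log2 fold change from B6 was -0.27 in C3H and -0.054 in WSB. For Flt1, a receptor of vascular endothelial growth factor, these fold changes were 0.031 and 0.047, and for Pecam1, an adhesion molecule of endothelium, 0.050 and -0.055. Choroid plexus, whose capillaries are fenestrated, varied widely within B6 and C3H. Ttr, its main secreted protein, had 62.5, 749 and 61.7 FPKM in the B6 mice, 88.6, 439.7 and 644 FPKM in the C3H mice and 528, 461 and 593 FPKM in the WSB mice. Its strain mean was higher in C3H and WSB than in B6, as that of Plvap was, with WSB highest for Ttr and C3H highest for Plvap, and within B6 the mouse with 749 FPKM of Ttr had 3.71 FPKM of Plvap. The part of choroid plexus in the level of Plvap was not tested. The last 1819 bases of Plvap, from 71497765 to 71499583, overlap Gtpbp3 on the other strand, and the sources used here do not say whether reads were counted by strand.

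The other vessel and heme members were not called. Ednra, the endothelin A receptor, had 0.60 ± 0.0121 FPKM (SD, n = 3) in B6, 0.879 ± 0.0574 in C3H and 1.07 ± 0.108 in WSB. All C3H and WSB mice lay above all B6 mice, with log2 fold changes of 0.74 (adjusted p = 0.0587) in WSB and 0.48 (adjusted p = 0.165) in C3H by limma. The WSB difference passed after the GC trend was removed, with voom weights and with all strains in 1 fit. Hmox1, heme oxygenase 1, had 2.95 ± 0.40 FPKM (SD, n = 3) in B6 and 2.1 ± 0.365 in WSB (log2 fold change -0.47, standard error 0.17, adjusted p = 0.17, limma). Klf2, a transcription factor induced by flow in endothelium, and Vegfc, a lymphatic growth factor, had strain means of 3.45 to 4.39 and 1.0 to 1.36 FPKM. After the GC trend was removed, Klf2 passed in C3H against B6.

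Of 8 lipid, sterol and inositol members, Hpgd and Msmo1 differed. Hpgd (ENSMUSG00000031613, chr8:56294585-56321043, plus strand) encodes the dehydrogenase that begins the inactivation of prostaglandins. It had 4.25, 3.44 and 3.68 FPKM in the B6 mice, 1.47, 1.72 and 1.01 FPKM in the C3H mice and 2.43, 1.51 and 1.17 FPKM in the WSB mice. Every C3H and WSB mouse lay below every B6 mouse, and C3H and WSB overlapped. The level was 2.64-fold lower in C3H (log2 fold change -1.4, standard error 0.20, adjusted p = 0.0085, limma) and 2.24-fold lower in WSB (log2 fold change -1.16, standard error 0.25, adjusted p = 0.0381, limma). The C3H difference passed under every alternative setting and without each mouse, whereas the WSB difference passed in 1 of the 6 fits that left out a mouse.

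Msmo1 (ENSMUSG00000031604, chr8:64718139-64733792, minus strand), the methylsterol monooxygenase of cholesterol synthesis, had 11.4, 11.9 and 10.5 FPKM in the C3H mice, below 16.2, 15 and 14.8 in the B6 mice and 17, 15.5 and 15.4 in the WSB mice. B6 and WSB overlapped. It was lower in C3H than in B6 (log2 fold change -0.44, standard error 0.083, adjusted p = 0.0284, limma) and higher in WSB than in C3H (log2 fold change 0.50, standard error 0.084, adjusted p = 0.0165, limma). Of the fits that left out a mouse, the first call passed in 1 of 6, the one without C3H replicate 2, and the second in 2 of 6, those without C3H replicate 2 or WSB replicate 3, and both were lost with the replicate block and with untrended eBayes. Lpl, lipoprotein lipase, had 3.04 ± 0.412 FPKM (SD, n = 3) in B6, 4.17 ± 0.499 in C3H and 4.09 ± 0.577 in WSB, and was not called. The same holds for Cers1, a ceramide synthase of neurons (17.2 to 20.6 FPKM over strain means), Isyna1, which makes inositol (16.8 to 20.2 FPKM), and Slc27a1, a fatty acid transporter (17.6 to 19.9 FPKM). After the GC trend was removed, Lpl and Cers1 passed in C3H against B6, and Cers1 also in WSB against C3H. The list's median log2 fold change was -0.34 in C3H against B6, 0.061 in WSB against B6 and 0.20 in WSB against C3H.

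Slc5a5 (ENSMUSG00000000792, chr8:70882889-70892757, minus strand), the sodium and iodide symporter best known from the thyroid, was also lower in both strains than in B6. It had 5.28, 7.17 and 8.09 FPKM in the B6 mice, 2.39, 2.49 and 2.53 FPKM in the C3H mice and 3.14, 2.7 and 2.49 FPKM in the WSB mice. The lowest B6 mouse lay above the highest mouse of both other strains. The level was 2.67-fold lower in C3H (log2 fold change -1.41, standard error 0.16, adjusted p = 0.00282, limma) and 2.39-fold lower in WSB (log2 fold change -1.26, standard error 0.17, adjusted p = 0.00657, limma), and both differences passed without each mouse.

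Of 23 transcription, chromatin and RNA members, only Ssbp4 was called, in both comparisons with B6. Ssbp4 (ENSMUSG00000070003, chr8:70597490-70608872, minus strand) encodes a protein of the single-stranded DNA-binding family. It had 41.7, 46.7 and 43.6 FPKM in the B6 mice, 87.2, 65.4 and 85.7 FPKM in the C3H mice and 66.3, 72.3 and 72.5 FPKM in the WSB mice. All C3H and WSB mice lay above B6. The level was 1.79-fold higher in C3H (log2 fold change 0.84, standard error 0.12, adjusted p = 0.00882, limma) and 1.6-fold higher in WSB (log2 fold change 0.68, standard error 0.072, adjusted p = 0.00207, limma). Both held under every alternative and without each mouse. The next members by level were not called. These were Jund, an AP-1 subunit, with strain means of 53.6 to 69.5 FPKM, Lsm4, a core protein of mRNA decay, with 36.5 to 51.5 FPKM, Upf1, the helicase of nonsense-mediated decay, with 18.4 to 20.1 FPKM, and Sin3b, a corepressor, with 12.1 to 14.6 FPKM.

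The starts of Hpgd, Slc5a5 and Ssbp4 are shown because these protein-coding genes differed from B6 in the same direction in both other strains, and no near-copy or overlapping member was found for them. Fam32a, with smaller differences, was the only other such gene. Each line is the 250 bases before the RefSeq start in the direction of the gene (GRCm38.p6, reference strain), at chr8:56294302-56294551, plus strand, for Hpgd, chr8:70892758-70893007, minus strand, for Slc5a5 and chr8:70608315-70608564, minus strand, for Ssbp4. Capitals mark every match, on either strand, to CCAAT (the CCAAT box), GGGCGG (the GC box), TATAAA (the TATA box) or CACGTG (the E-box).
Hpgd: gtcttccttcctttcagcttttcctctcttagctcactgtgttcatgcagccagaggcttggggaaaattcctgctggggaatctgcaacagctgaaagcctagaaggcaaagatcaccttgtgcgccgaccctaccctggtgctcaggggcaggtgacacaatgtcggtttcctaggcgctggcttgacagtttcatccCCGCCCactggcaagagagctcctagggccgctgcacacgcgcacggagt
Slc5a5: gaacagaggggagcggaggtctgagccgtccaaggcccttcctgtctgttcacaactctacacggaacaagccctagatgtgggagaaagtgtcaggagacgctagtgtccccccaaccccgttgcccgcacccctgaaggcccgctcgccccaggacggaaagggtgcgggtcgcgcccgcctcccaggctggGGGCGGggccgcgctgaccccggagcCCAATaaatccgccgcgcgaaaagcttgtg
Ssbp4: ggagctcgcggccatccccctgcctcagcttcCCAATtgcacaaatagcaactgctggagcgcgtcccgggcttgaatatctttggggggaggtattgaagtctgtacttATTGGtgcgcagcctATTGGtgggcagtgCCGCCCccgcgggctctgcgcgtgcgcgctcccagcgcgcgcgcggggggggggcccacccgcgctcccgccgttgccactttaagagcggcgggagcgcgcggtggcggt
Hpgd had 1 GC box, Slc5a5 had 1 CCAAT box and 1 GC box, and Ssbp4 had 3 CCAAT boxes and 1 GC box. The stretch of Ssbp4 lies inside the span annotated for that gene, while those of Hpgd and Slc5a5 lie outside theirs. RefSeq starts were found for 136 of the 206 members, with 165 promoters. For 115 of the 165, the bases just after the start were found in a GENCODE transcript of the gene. The GC box occurred in 55.2% of the 165 promoters and in 32.7% of all 32851 promoters, the CCAAT box in 40.6% and 33.8%, the TATA box in 6.06% and 12.4%, and the E-box in 5.45% and 6.02%. Members had to reach 0.1 FPKM, and no such limit was set for the 32851 promoters. The shares therefore cannot be read as particular to the region. These matches describe letters of the reference strain only, and variants of C3H and WSB at these sites were not analysed here.

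**Figure D2:**
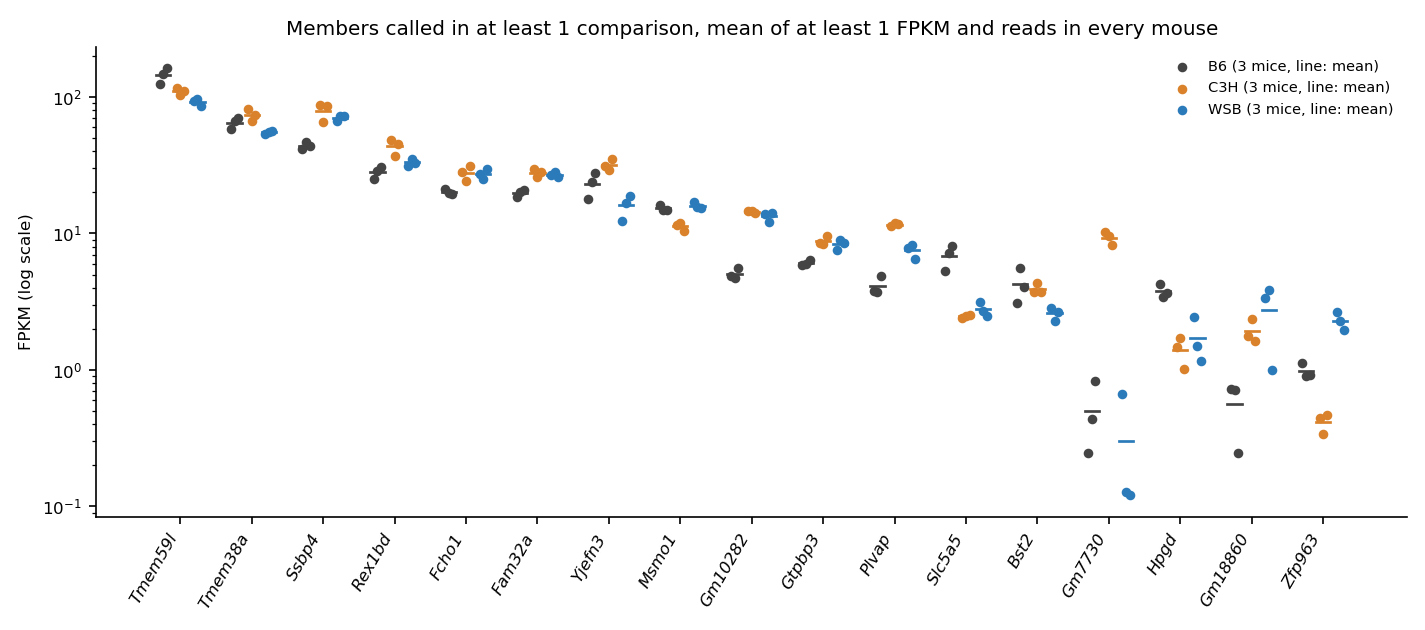
FPKM (log scale) of 17 members called in at least 1 comparison, averaging 1 FPKM or more and read in every mouse. Points are single mice of B6, C3H and WSB and lines are strain means. For Plvap, Zfp963, Tmem59l and Rex1bd the 3 strains stand apart, and for Ssbp4, Slc5a5, Hpgd, Fam32a and Gtpbp3 the C3H and WSB mice lie together on one side of B6.

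Zfp963 was the only one of 10 Zfp-numbered zinc-finger members to be called, and the only member called in opposite directions in the comparisons with B6. Zfp963 (ENSMUSG00000092260, chr8:69741639-69749970, minus strand) had 1.12, 0.905 and 0.919 FPKM in the B6 mice, 0.444, 0.337 and 0.471 FPKM in the C3H mice and 2.64, 2.29 and 1.95 FPKM in the WSB mice, from 15 to 21 reads per mouse in C3H, 42 to 46 in B6 and 82 to 101 in WSB. C3H was lowest and WSB highest, with no overlap. The level was 2.21-fold higher in WSB than in B6 (log2 fold change 1.14, standard error 0.17, adjusted p = 0.00906, limma), 2.09-fold lower in C3H than in B6 (log2 fold change -1.07, standard error 0.22, adjusted p = 0.0368, limma) and 4.63-fold higher in WSB than in C3H (log2 fold change 2.21, standard error 0.20, adjusted p = 0.00111, limma). The C3H difference passed in 1 of the 6 fits that left out a mouse, and not after the GC trend was removed (log2 fold change -0.88), while both WSB differences passed throughout. Gm20422, which covers most of Zfp963 on the same strand, had no reads.

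All 10 zinc-finger members had a log2 fold change under 0 in C3H against B6, from -1.07 to -0.059, with a median of -0.28. Of all genes 49.6% lay above 0 there, and their median was -0.0038. Over all genes this fold change had a Spearman correlation of 0.48 with GC content. The part of GC content in the zinc-finger values was not tested. In WSB against B6 they ranged from -0.55 to 1.14. The highest by level was Zfp869, with 10.8 ± 1.32 FPKM (SD, n = 3) in B6, 8.77 ± 0.443 in C3H and 9.5 ± 0.804 in WSB. Zfp617 had 7.29 ± 1.43 FPKM (SD, n = 3) in B6 and was at 4.41 ± 1.0 in C3H and 4.89 ± 0.345 in WSB, with log2 fold changes of -0.72 (adjusted p = 0.0822) and -0.55 (adjusted p = 0.0737) by limma. Zfp868 had 7.02 ± 1.21 FPKM (SD, n = 3) in WSB, above all B6 and C3H mice, with 4.95 ± 0.178 and 4.4 ± 0.797 FPKM, and a log2 fold change from B6 of 0.48 (adjusted p = 0.092) by limma. Zfp866 had strain means of 3.1 to 3.66 FPKM.

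Of 6 mitochondrial members, Gtpbp3 was called. Gtpbp3 (ENSMUSG00000007610, chr8:71488103-71499583, plus strand), an enzyme that modifies mitochondrial transfer RNAs, had 5.9, 5.99 and 6.44 FPKM in the B6 mice, 8.44, 8.32 and 9.56 FPKM in the C3H mice and 7.56, 9.02 and 8.49 FPKM in the WSB mice. All C3H and WSB mice lay above B6 (log2 fold change 0.51, standard error 0.092, adjusted p = 0.0234 for C3H and log2 fold change 0.44, standard error 0.093, adjusted p = 0.0375 for WSB, limma). Each call passed in 1 of 6 fits that left out a mouse. Gtpbp3 shares 1819 bases with Plvap, which was also higher in both strains. Ndufa13, a subunit of complex I of the respiratory chain, had strain means of 115 to 139 FPKM, Mrpl34, a mitochondrial ribosomal protein, 42.4 to 51.7 FPKM, and Mpv17l2, needed for mitochondrial ribosome assembly, 15.5 to 19.3 FPKM, and none of them was called. Slc25a42, a carrier of coenzyme A, ranged over strain means from 5.53 to 6.29 FPKM.

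Of 14 endolysosome and vesicle members, Fcho1 was called, in WSB against B6. Fcho1 (ENSMUSG00000070000, chr8:71708387-71725716, minus strand), which helps to start clathrin-coated pits, had 20.2 ± 0.941 FPKM (SD, n = 3) in B6, 27.8 ± 3.58 in C3H and 27.3 ± 2.18 in WSB. The WSB difference passed (log2 fold change 0.44, standard error 0.080, adjusted p = 0.0219, limma) and the C3H difference, of about the same size, did not (log2 fold change 0.46, standard error 0.10, adjusted p = 0.0552, limma). The WSB call was lost after the GC trend was removed (log2 fold change 0.39) and passed in 2 of 6 fits that left out a mouse. The members of highest level were Atp6v1b2, a subunit of the vacuolar proton pump, with strain means of 137 to 149.8 FPKM, Use1, a SNARE of the endoplasmic reticulum, with 32.8 to 41.4, Cope, a coatomer subunit, with 31.6 to 40.2, and Ap1m1, an adaptor subunit, with 19.1 to 21.2 FPKM, none of them called.

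The 17 synapse and excitability members included the 3 of highest level in the region, and 1 of the 17 was called. Glra3 (ENSMUSG00000038257, chr8:55940460-56130070, plus strand), a subunit of the glycine receptor, had 0.886, 1.2 and 0.581 FPKM in the B6 mice, 0.595, 0.611 and 0.509 FPKM in the C3H mice and 1.51, 1.34 and 1.01 FPKM in the WSB mice. WSB and C3H did not overlap, and B6 overlapped both. It was 2.05-fold higher in WSB than in C3H (log2 fold change 1.03, standard error 0.21, adjusted p = 0.0338, limma), and the call was lost after the GC trend was removed (log2 fold change 0.63) and with the replicate block, and passed in 2 of 6 fits that left out a mouse, those without C3H replicate 2 or WSB replicate 3. Its transcript has a GC content of 35.2%, beside the members' median of 52.7%.

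Cpe, the carboxypeptidase that trims neuropeptides, was the member of highest level, with 959.6 ± 48.9 FPKM (SD, n = 3) in B6, 958 ± 21.5 in C3H and 903 ± 11.6 in WSB. Its log2 difference between WSB and B6 was -0.086, with a 95% interval of -0.30 to 0.13, and between C3H and B6 -0.0015 (-0.23 to 0.22). Gpm6a, a neuronal membrane glycoprotein, had strain means of 354 to 396 FPKM, and Rab3a, a small GTPase of synaptic vesicles, 284 to 337 FPKM. Atp6v1b2, described above, was also among the 5 highest. The intervals for WSB against B6 were -0.31 to 0.15 for Gpm6a and -0.13 to 0.28 for Rab3a. Mast3, a kinase enriched in brain, had strain means of 56.8 to 65.4 FPKM. Rasd2, which is enriched in striatum and was picked out after its values were seen, varied widely within strains, with 84.8, 51.6 and 30.7 FPKM in the B6 mice, 50.7, 26.9 and 66.1 in the C3H mice and 17.8, 34.2 and 42 in the WSB mice. Its level stood beside striatal markers that varied from 75.7 to 312 FPKM within B6.

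**Figure D3:**
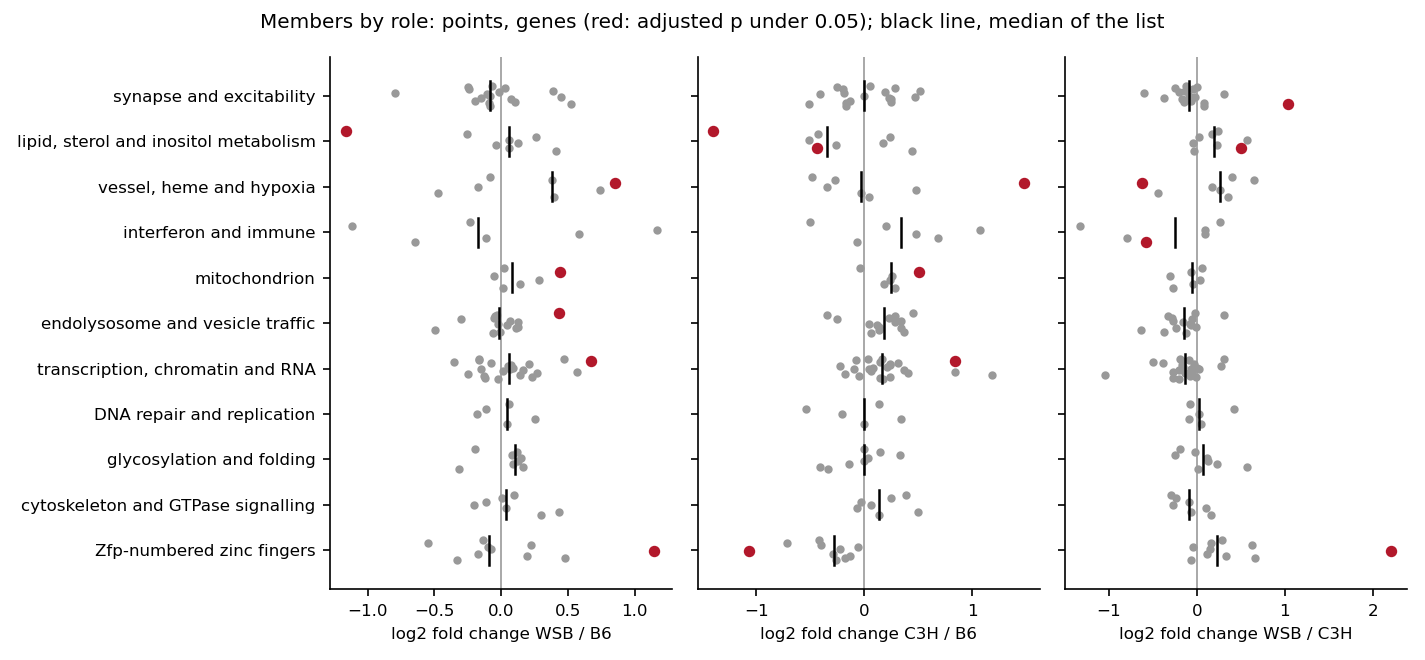
Log2 fold changes of the members in 10 role lists and of the Zfp-numbered zinc fingers, for the 3 comparisons. Each point is a gene, red where its adjusted p was under 0.05, and the black line is the median of the list. No list holds more than 2 called members in a comparison. In C3H against B6 the zinc fingers all lie below 0, and 49.6% of all genes lie above 0.

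Among 6 interferon and immune members, Bst2 was lower in WSB than in C3H. Bst2 (ENSMUSG00000046718, chr8:71534255-71537456, minus strand), or tetherin, an interferon-induced protein that holds virus particles at the cell surface, had 3.09, 5.54 and 4.05 FPKM in the B6 mice, 3.75, 4.34 and 3.71 FPKM in the C3H mice and 2.86, 2.3 and 2.67 FPKM in the WSB mice. WSB lay below both other strains (log2 fold change -0.58, standard error 0.13, adjusted p = 0.0462 against C3H, limma), but the call was lost when any single mouse was left out. Ifi30, a thiol reductase of antigen processing, had 3.97 ± 0.735 FPKM (SD, n = 3) in C3H, above 2.41 ± 0.235 in B6 and 2.27 ± 0.588 in WSB, with log2 fold changes of 0.69 (adjusted p = 0.0519) for C3H against B6 and -0.80 (adjusted p = 0.0717) for WSB against C3H by limma. Jak3, a kinase of cytokine receptors, had 1.17 ± 0.0787 FPKM (SD, n = 3) in B6, 1.68 ± 0.124 in C3H and 1.81 ± 0.191 in WSB and was not called. March1, a ubiquitin ligase of antigen-presenting cells, ranged over strain means from 2.81 to 3.9 FPKM, and Lrrc25, a leukocyte receptor, from 0.262 to 0.764 FPKM. The microglia and blood markers given above differ between the same strains.

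No member was called in the lists of DNA repair and replication (5 members), glycosylation and folding (8 members), and cytoskeleton and GTPase signalling (7 members). By limma, their medians of log2 fold change in WSB against B6 were 0.042, 0.11 and 0.040. The highest by level were Babam1, of a deubiquitinating complex in DNA repair (29.6 to 37.6 FPKM over strain means), Fkbp8, a chaperone that anchors Bcl-2 (92.4 to 117 FPKM), and Pik3r2, a regulatory subunit of phosphoinositide 3-kinase (43.5 to 56.8 FPKM). In the first list followed Hpf1, a partner of PARP1 (10.2 to 11.2 FPKM), Nek1, a kinase of cilia and DNA repair (2.3 to 3.37 FPKM), and Mcm5, of the replicative helicase (1.65 to 1.7 FPKM). In the second followed Spcs3, of the signal peptidase (25.2 to 28.8 FPKM) and Colgalt1, which glycosylates collagen (12.2 to 13.5 FPKM). In the third followed Tpm4, a tropomyosin (10.1 to 10.9 FPKM), and the GTPase regulators Arhgap10 (8.48 to 10.1 FPKM) and Myo9b (7.45 to 8.04 FPKM).

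Protein-coding members outside the role lists also differed. Tmem59l (ENSMUSG00000035964, chr8:70483867-70487358, minus strand), a membrane protein enriched in neurons, had 125, 146 and 162 FPKM in the B6 mice, 117, 103 and 111 FPKM in the C3H mice and 94.1, 97.2 and 86 FPKM in the WSB mice. WSB lay below B6 (log2 fold change -0.64, standard error 0.11, adjusted p = 0.0149, limma), and this call passed in 3 of 6 fits that left out a mouse. All C3H mice also lay below all B6 mice. That difference was not called, but it passed after the GC trend was removed (log2 fold change -0.55, adjusted p = 0.0042, limma). Fam32a (ENSMUSG00000003039, chr8:72219730-72224418, plus strand) had 18.4, 20.2 and 21 FPKM in B6, 29.5, 26.1 and 28.3 in C3H and 26.7, 28.4 and 25.8 in WSB. Both strains lay above B6, with log2 fold changes of 0.49 (adjusted p = 0.0179) and 0.44 (adjusted p = 0.0174) by limma. These passed in 2 and 3 of 6 fits that left out a mouse and were lost with the replicate block. Rex1bd (ENSMUSG00000058833, chr8:70504292-70506752, minus strand) had 25.2, 28.9 and 30.4 FPKM in B6, 48, 37.2 and 45.5 in C3H and 31.3, 35.2 and 32.7 in WSB. C3H was above B6 (log2 fold change 0.62, standard error 0.12, adjusted p = 0.0284, limma), and the call passed in 1 of 6 fits that left out a mouse, the one without C3H replicate 2.

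Tmem38a (ENSMUSG00000031791, chr8:72572055-72587282, plus strand), a cation channel of the endoplasmic reticulum, had 55 ± 1.68 FPKM (SD, n = 3) in WSB, below 73.9 ± 7.1 in C3H (log2 fold change -0.42, standard error 0.085, adjusted p = 0.0334, limma), with 65 ± 5.9 in B6. This call passed in 1 of 6 fits that left out a mouse, the one without C3H replicate 2, and was lost with the low-value filter dropped, with untrended eBayes and with the replicate block. Yjefn3 (ENSMUSG00000048967, chr8:69887788-69902712, minus strand) had 18, 23.7 and 27.8 FPKM in the B6 mice, 31.3, 29 and 35 FPKM in the C3H mice and 12.4, 16.7 and 18.9 FPKM in the WSB mice. WSB lay below C3H (log2 fold change -1.0, standard error 0.16, adjusted p = 0.0127, limma) and overlapped B6, and the call was lost without C3H replicate 1 or C3H replicate 3. Yjefn3 shares 8379 bases with Ndufa13 on the same strand, a member of 123 FPKM on average, and how reads over both genes were counted is not given in the sources used here. Ccdc194 (ENSMUSG00000108900, chr8:71520120-71525711, minus strand), a coiled-coil protein, had no read in any B6 mouse, 5, 11 and 6 reads in the C3H mice and 10, 17 and 19 reads in the WSB mice. Set against a floor of 3 reads per library, WSB was at least 5.74-fold higher than B6 (adjusted p = 0.0101, limma), a call lost without WSB replicate 2 or WSB replicate 3. Beside C3H the WSB difference was 0.92 (adjusted p = 0.166) on the log2 scale by limma.

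The 4 near-copies whose sequences are printed above were all called in at least 1 comparison. Gm10282 (ENSMUSG00000070713, chr8:72304110-72305260, minus strand), annotated as protein-coding and a near-copy of Hmgn2, which encodes a nucleosome-binding protein, had 4.9, 4.73 and 5.54 FPKM in the B6 mice, 14.5, 14.5 and 14.1 FPKM in the C3H mice and 13.9, 12.1 and 14.2 FPKM in the WSB mice. All C3H and WSB mice lay above B6. The level was 2.82-fold higher in C3H (log2 fold change 1.49, standard error 0.088, adjusted p = 9.54e-05, limma) and 2.62-fold higher in WSB (log2 fold change 1.39, standard error 0.10, adjusted p = 0.00027, limma). Hmgn2 itself, on chromosome 4 from 133964738 to 133968650, went the other way, with 23.7, 22.7 and 22.4 FPKM in B6, 5.2, 5.77 and 6.45 in C3H and 5.58, 5.93 and 5.55 in WSB. Its log2 fold changes were -1.97 (adjusted p = 3.27e-05) in C3H and -1.99 (adjusted p = 6.20e-06) in WSB by limma. In reads, Gm10282 had 101 to 136 per B6 mouse, 311 to 324 per C3H mouse and 241 to 299 per WSB mouse, while Hmgn2 had 1299 to 1460, 296 to 383 and 284 to 314. In all, 2 genes were similar to Gm10282, both at a mean of 0.1 FPKM or more. The part of read assignment between such copies in these differences was not tested.

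Gm7901 (ENSMUSG00000101431, chr8:75711600-75713196, minus strand), a processed pseudogene that matches Phgdh, the first enzyme of serine synthesis, was found mainly in WSB. It had 0.035, 0.093 and 0.147 FPKM in the B6 mice, 0.269, 0.129 and 0.129 FPKM in the C3H mice and 2.0, 1.55 and 1.95 FPKM in the WSB mice, from 1 to 5, 4 to 8 and 43 to 57 reads per mouse. WSB stood above both other strains, which overlapped. On the scale of FPKM + 0.1, WSB was 10.3-fold above B6 (log2 fold change 3.37, standard error 0.29, adjusted p = 0.000724, limma) and 7.16-fold above C3H (log2 fold change 2.84, standard error 0.27, adjusted p = 0.0014, limma). Phgdh, on chromosome 3 from 98313170 to 98339990, was lower in WSB, with 26.4, 27.1 and 26.4 FPKM beside 34.6, 36.7 and 35.4 in B6 and 39.4, 37 and 43.6 in C3H. Its log2 fold change was -0.42 (adjusted p = 0.00781) against B6 and -0.58 (adjusted p = 0.00723) against C3H by limma. Gm7901 lies within Iqcm on the other strand, a gene with 4 to 6 reads per WSB mouse and 0 to 2 per B6 mouse, and 16 genes in all were similar to it.

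Gm7730 (ENSMUSG00000110545, chr8:70010549-70011002, minus strand), a processed pseudogene that matches the nucleoside diphosphate kinase gene Nme2, was found mainly in C3H. It had 0.246, 0.436 and 0.827 FPKM in the B6 mice, 10.2, 9.55 and 8.17 FPKM in the C3H mice and 0.662, 0.127 and 0.121 FPKM in the WSB mice, from 2 to 8, 72 to 86 and 1 to 5 reads per mouse. C3H lay above both other strains. The log2 fold change was 4.07 for C3H against B6 (standard error 0.33, adjusted p = 0.000487, limma) and -4.8 for WSB against C3H (standard error 0.46, adjusted p = 0.00142, limma). Nme2, on chromosome 11 from 93949814 to 93956259, had 1.29, 1.61 and 2.4 FPKM in B6, 3.17, 2.86 and 4.36 in C3H and 1.03, 1.63 and 2.34 in WSB. C3H was higher there too, with a log2 fold change from B6 of 0.95 (adjusted p = 0.079) by limma, which did not pass. In all, 4 genes were similar to Gm7730, 2 of them at a mean of 0.1 FPKM or more.

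Gm18860 (ENSMUSG00000110569, chr8:71704205-71704968, minus strand), a processed pseudogene that matches Cnot8, a deadenylase subunit, had 0.731, 0.713 and 0.246 FPKM in the B6 mice, 1.76, 2.36 and 1.62 FPKM in the C3H mice and 3.38, 3.86 and 1.0 FPKM in the WSB mice. Both other strains lay above B6, and WSB replicate 3 stood apart from the other WSB mice. The difference passed in C3H (log2 fold change 1.69, standard error 0.36, adjusted p = 0.0434, limma), although in 1 of 6 fits that left out a mouse, and not in WSB (log2 fold change 2.01, standard error 0.55, adjusted p = 0.0878, limma). Cnot8 had 23.3 ± 1.97 FPKM (SD, n = 3) in B6, 23.6 ± 1.18 in C3H and 25.7 ± 0.311 in WSB, with log2 fold changes of 0.023 and 0.15.

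**Figure D4:**
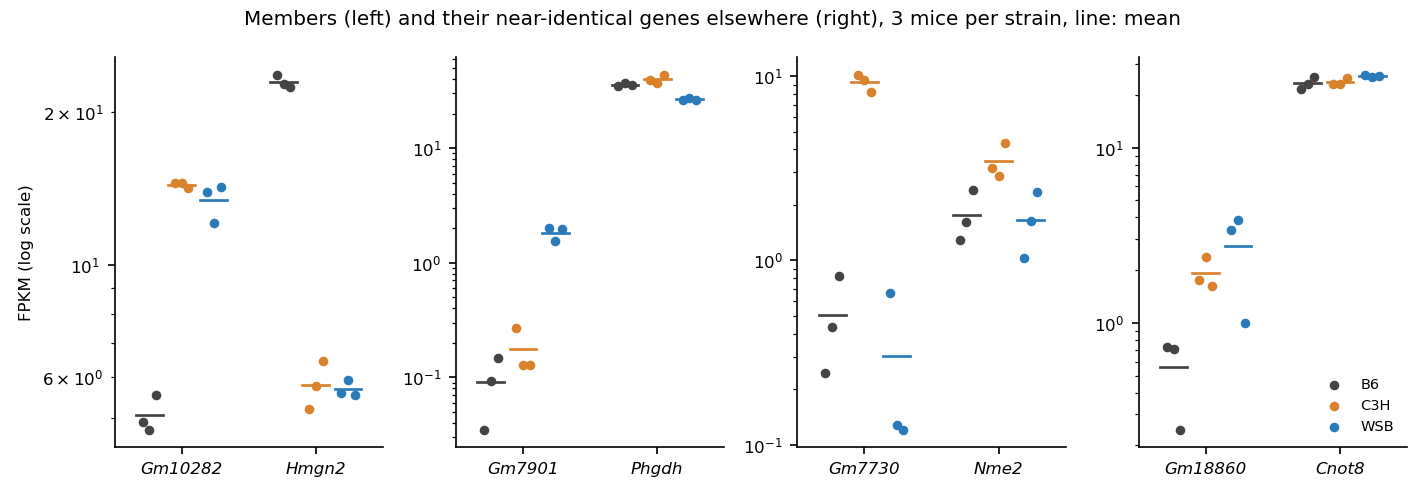
FPKM (log scale, a separate axis for each panel) of 4 called members and of the near-identical gene elsewhere in the genome. Points are single mice and lines are strain means. Gm10282 is higher in C3H and WSB, in which Hmgn2 is lower, and Gm7901 is higher in WSB, in which Phgdh is lower.

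Non-coding and unplaced members held the other large differences, mostly on few reads. Gm10654 (ENSMUSG00000074252, chr8:70931405-70933037, plus strand), a transcript still to be experimentally checked by the annotation's own class, was found in B6. It had 32, 58 and 47 reads in the B6 mice, no read in any C3H mouse and 1 read in 1 WSB mouse. The B6 to WSB ratio of summed reads, scaled for depth, was 120 on 137 and 1 reads, with an exact 95% counting interval of 21.3 to 4790. That interval pools the mice of a strain and leaves out variation between them. C3H was at least 14.6-fold lower than B6 against the floor of 3 reads per library. Both comparisons passed (adjusted p = 0.000607 and 0.000381, limma) under every alternative that could be fitted. Its mean of 0.1 FPKM or more came from the B6 mice, so these results are partly set by the rule that chose it. Gm10033 (ENSMUSG00000110444, chr8:69366510-69395539, minus strand), a transcribed unprocessed pseudogene, had 1.02, 0.792 and 0.698 FPKM in the B6 mice, 0.186, 0.232 and 0.231 FPKM in the C3H mice and 0.405, 0.265 and 0.425 FPKM in the WSB mice. B6 lay above both other strains, and the C3H difference passed (log2 fold change -1.55, standard error 0.25, adjusted p = 0.0144, limma), but not without B6 replicate 1, B6 replicate 2 or C3H replicate 1 and not with the replicate block.

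Gm45650 (ENSMUSG00000109992, chr8:60719291-60725806, plus strand), a long intergenic non-coding RNA, had 16, 8 and 6 reads in the B6 mice, 18, 20 and 26 in the C3H mice and 3, 0 and 5 in the WSB mice. WSB was lowest and C3H highest (log2 fold change -1.92, standard error 0.41, adjusted p = 0.0391, limma), and the call was lost when any single mouse was left out. Gm45704 (ENSMUSG00000110585, chr8:72771658-72784333, minus strand), an unprocessed pseudogene, had 2, 3 and 7 reads in the WSB mice and none in C3H. The WSB mean was 1.44-fold the C3H floor of 3 reads per library. That value is carried by the mouse with 7 reads and is not a lower bound. The call (adjusted p = 0.0205, limma) passed in 2 of 6 fits that left out a mouse and was lost with a pseudocount of 1 and with the replicate block. Gm23468 (ENSMUSG00000087750, chr8:77569495-77569602, minus strand), a small nuclear RNA of 108 bases within Prmt9 on the other strand, had 7, 2 and 3 reads in WSB, 0, 0 and 1 in C3H and 1, 3 and 1 in B6. The ratio of WSB to C3H was 13.2 on 12 and 1 reads, with an exact 95% counting interval of 1.95 to 564. That interval pools the mice of a strain and leaves out variation between them. Its call (adjusted p = 0.0454, limma) passed in 1 of 6 fits that left out a mouse, the one without C3H replicate 3, and was lost with either other pseudocount, with the low-value filter dropped, with untrended eBayes, with the replicate block and after the GC trend was removed. Prmt9 had 3.61 ± 0.0284 FPKM (SD, n = 3) in WSB and 4.39 ± 0.265 in C3H.

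Low levels limit what could be seen for some members. A mean under 0.1 FPKM in at least 1 strain was found for 19 members, 5 of which were called in some comparison, and 8 members had no read in at least 1 strain. Because a member enters through its mean over all mice, such a gene had to be higher elsewhere, and its difference is partly set by the rule. Members left out of a test for a mean under 0.1 FPKM in the 6 mice numbered 3 for WSB against B6, 3 for C3H against B6 and 5 for WSB against C3H, Gm10654 among the last.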

How the data were processed

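Cortex RNA of 9 male mice, 3 per strain, was sequenced with paired reads of 150 bases. The deposited values are FPKM, made by the authors from reads counted on genes; STAR, HTSeq and DESeq2 are named in the submitters' processing notes and Cutadapt in the methods, and neither versions nor strand setting are given in the sources used here. All 206 members had the coordinates of GENCODE M21 (GRCm38). FPKM times gene length was a whole multiple of 1 step per library (100% of values, tolerance 0.01 of a read), which returned reads on genes for depth, for the floor of 3 reads and for voom weights. Reads without molecular identifiers give counting error only.

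Strains were compared in pairs, 6 mice at a time, with limma 3.58.1 in R 4.3.3 (lmFit and trended eBayes, two-sided p-values) after a log2 transform of FPKM + 0.1, over all genes averaging 0.1 FPKM or more in those mice, with Benjamini-Hochberg adjustment over all of them and a threshold of 0.05. This scale understates changes of low genes. Between mice of one strain, chi-square over genes divided by their number was 7.29 to 22, above sampling noise, so each library was counted as 1 mouse. Similar transcripts (90% identity over 50% of the length) were found with blastn 2.17.0. Where several genes were similar to a member, the one with the highest mean FPKM was shown, which need not be the closest in sequence. Promoters came from RefSeq (GRCm38.p6), and GC content from transcripts. Figures were drawn with matplotlib 3.10.9.

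The members and lists were chosen with earlier results of these data known. Named were all members called, up to 4 more per role list by mean FPKM, the 5 highest members, those nearest the limit of 0.1 FPKM, and genes that overlap or nearly match a named member. Results of some members that this rule names are not reported here. Alternatives were a larger (1) and a smaller (0.01) pseudocount, the filter dropped or raised to 1 FPKM, 2 rescalings, 1 fit of all strains, untrended eBayes, weights from voom, a block for the replicate number, a test of protein-coding genes alone, removal of the GC trend, and leaving out each mouse.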

Additional observations from a re-analysis of the deposited data

Results flagged for a closer look

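In 4 members, all 3 WSB mice lay on one side of all 3 B6 mice and all 3 C3H mice on the other, or 1.94% of the 206 members beside 1.26% of all 20768 genes at a mean of 0.1 FPKM or more. They were picked for this pattern, so the direction and separation of WSB and C3H were fixed by the choice and are given without a test. The log2 difference of WSB from C3H was 2.21 for Zfp963 (WSB above B6 and C3H below), 2.60 for Gm45704 (on at most 7 reads per mouse), -1.92 for Gm45650 (on at most 26 reads per mouse) and -0.82 for Asb5. Asb5 had 0.606, 0.43 and 0.433 FPKM in the B6 mice, 0.612, 0.616 and 0.671 in the C3H mice and 0.228, 0.407 and 0.327 in the WSB mice. These rest on 16 to 20, 21 to 24 and 7 to 13 reads per mouse, and the highest B6 mouse lay close to the lowest C3H mouse.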

How the results depend on the processing

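No called difference changed direction under any alternative. Of the calls, 6 of 14 for WSB against B6, 7 of 15 for C3H against B6 and 3 of 12 for WSB against C3H passed under every alternative that could be fitted and without each mouse. These were Ssbp4, Gm10282, Slc5a5, Zfp963, Gm7901 and Gm10654 for WSB against B6, Ssbp4, Gm10282, Plvap, Slc5a5, Gm7730, Hpgd and Gm10654 for C3H against B6, and Gm7730, Zfp963 and Gm7901 for WSB against C3H. Gm10654 became a member through its B6 level, so its place here is partly set by the rule. Leaving out 1 mouse gave 7 to 12 members for WSB against B6, 7 to 33 for C3H against B6 and 3 to 24 for WSB against C3H, with the highest count in both C3H comparisons reached without C3H replicate 2. Over all genes it gave 651 to 825, 498 to 2301 and 475 to 2002, again highest without C3H replicate 2 in both C3H comparisons. The replicate numbers did not pair the mice, since correlations of same-numbered mice ran from -0.16 to 0.037. With the replicate block the counts were 12, 9 and 4, and with the block and the GC trend removed 13, 14 and 7. Over all genes they were 754, 480 and 531, and 791, 593 and 847. Without the block, removal of the GC trend gave 19, 22 and 11, of which 13, 14 and 8 were among the members called before. Named members that it added were Ednra, Gm10033, Tmem38a, Yjefn3, Zfp617 and Zfp868 for WSB against B6. For C3H against B6 they were Cers1, Klf2, Lpl and Tmem59l, and for WSB against C3H Cers1 and Spcs3. Over all genes this removal gave 1462, 1203 and 1424, beside 1224, 956 and 1182 called before. Rescaling to total reads gave 14, 18 and 11, and all 3 strains in 1 fit gave 19, 22 and 15. Over all genes these settings gave 1240, 1002 and 1172, and 1453, 1367 and 1657. The cause of these changes was not tested. With a mean of at least 1 FPKM there were 143 members. The planned edgeR and DESeq2 fits on recovered reads were not run, because the deposited unit is FPKM. For single called differences and alternatives other than the counts above, 583 values kept their side of the threshold and 176 no longer passed, all in the same direction as before. With 3 mice per strain, members with few reads could be tested only for large differences.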

Other observations

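The role lists hold 8 genes of the region that the limit of 0.1 FPKM left out. Their levels are low by that choice and are given as a description. Gdf15, a stress-induced cytokine, had 6 reads in all B6 mice together, 7 in C3H and 9 in WSB. Ddx60, an interferon-induced helicase, had 35, 46 and 26 reads, and Neil3, a DNA glycosylase, 7, 7 and 11. Ankle1 (16, 16 and 8 reads), Aadat (3, 9 and 2), Hsh2d (4, 6 and 0) and Slc18a1, a monoamine transporter of vesicles (8, 8 and 6), were also below the limit, and Hand2, a transcription factor of heart and sympathetic neurons, had 0 reads in the 9 mice.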
